A study of Homo sapiens with 6 samples.

Results

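The ETS genes described here are 10 of the 32029 genes counted in SW480, an established human colorectal cancer line, and they were taken by their gene names: ETV4, ETV5, ETV6, ETV7, ETS1, ETS2, ELF1, ELF3, ELF4 and ELK1. Their reads were compared between 3 cultures that received a control siRNA (siControl, labelled siNC, genotype WT) and 3 that received an siRNA against ZEB1 (siZEB1, genotype ZEB1 knockdown). All 6 were grown as the same line, and total RNA was taken 48 h after transfection. Levels are given as CPM, which are counts scaled to library size with TMM factors. A log2 fold change above 0 means more RNA in the siZEB1 cultures. A gene was called when its adjusted p-value in edgeR's quasi-likelihood test over 14996 genes was under 0.05. Each group is bulk RNA, in which fewer cells with a transcript and less of it per cell cannot be told apart.

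ETS proteins are transcription factors that share a winged helix-turn-helix DNA-binding domain and recognise sites built around the core GGAA. Many of them sit at the end of the RAS-ERK cascade, either as direct substrates of ERK, as ELK1 and ETS2 are, or as genes that ERK switches on by relieving the repressor CIC, as the PEA3 genes ETV4 and ETV5 are. ETV6 and ETV7 act mainly as repressors, and ELF3 is largely restricted to epithelia. In colorectal cancer the PEA3 group is known for invasion and for the control of matrix proteases.

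ETV5 was the clearest case, since its RNA fell by 33.1% after ZEB1 knockdown and the call was kept in all 12 alternative fits. ETV4, its close relative and the ETS gene with the highest level per length, went the other way, by 14.8%. The ETV4 call was lost in 5 of the 12 fits. ETV7 was barely transcribed in either group and rose by 1.22 on the log2 scale from a few reads, and ELF4 fell by 13.5%. Of the 10 genes, 2 were called higher (ETV4 and ETV7) and 2 lower (ETV5 and ELF4), 5 were not called, and ELF3 had too few reads to be tested. Over all 14996 tested genes, 19% were called higher and 21.2% lower, so calls were about as frequent among these ETS genes as in the background.

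The knockdown itself was visible in every culture. ZEB1 stood at 58.6, 57.0 and 47.1 CPM in the siControl cultures and at 7.20, 6.86 and 8.46 CPM in the siZEB1 cultures. The library totals ran from 19040636 to 22357633 reads. The siControl culture of replicate 3 differed most from its group, with a chi-square over degrees of freedom of 8.58 and 6.47 against its group mates, which differed from each other by 3.36. The siZEB1 culture of replicate 3 also stood apart, at 4.51 and 6.32 against its group mates, which differed by 2.18. Of 10 colorectal epithelial markers, 9 were counted and 7 tested. Of these, 3 were called higher (EPCAM, VIL1 and KRT19, by 3.05, 2.34 and 1.62 on the log2 scale), against 19% of all tested genes. Another 1 was called lower (the intestinal factor CDX2, -1.30), against 21.2% of all tested genes, and the rest were not called. The keratins KRT8 and KRT18 were abundant in both groups, and the colonic surface markers CDH17 and CEACAM5 stayed below the filter. Of 10 blood and endothelial markers, 7 were counted, and their summed level was 2.01 to 3.35 CPM over the 6 cultures. The monocyte marker CD68 had no reads with siControl. However, 81.7% of the CD68 exonic bases also belong to another annotated gene that runs in the same direction. Missing reads therefore cannot show that CD68 was silent. Of 5 fibroblast markers, 4 were counted, with a summed level of 13.1 to 15.2 CPM over the 6 cultures. Only 2 were tested and 1 was called higher (PDGFRB, 0.42 on the log2 scale), against 19% of all tested genes. The PDGFRB call was lost without siControl replicate 1, siZEB1 replicate 1 or siZEB1 replicate 3 (adjusted p up to 0.0979) and with DESeq2 (0.0708).

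Promoter sequence could be read for 6 of the 10 genes from the RefSeq table on GRCh38.p14, in windows of 300 bases from 250 before to 50 after each annotated start. ETV4, ETV5, ETV7 and ETS1 had no entry. ZEB1 is known to bind E-boxes of the form CACCTG, and this hexamer was searched on both strands (CACCTG or CAGGTG). Among the 11 windows of the 6 genes, it occurred in 1 window each of ELF3, ETS2 and ELF4. It occurred in 20.6% of all 35116 windows. The windows are shown because these are the 3 genes in which an E-box lies close to a start, and the hexamer is in capitals. The ELF3 window is whole (chr1:202010337-202010636, plus strand), with the hexamer 120 bases before the start. The ETS2 stretch (chr21:38805019-38805104, plus strand) has it 124 bases before the start, and the ELF4 stretch (chrX:130110676-130110747, minus strand) 224 bases before it.

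ELF3: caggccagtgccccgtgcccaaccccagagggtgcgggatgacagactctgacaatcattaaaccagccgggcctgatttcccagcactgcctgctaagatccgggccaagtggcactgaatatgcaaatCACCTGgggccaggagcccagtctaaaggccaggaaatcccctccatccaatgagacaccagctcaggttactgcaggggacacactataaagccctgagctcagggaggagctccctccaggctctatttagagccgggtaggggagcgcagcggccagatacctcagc
ETS2: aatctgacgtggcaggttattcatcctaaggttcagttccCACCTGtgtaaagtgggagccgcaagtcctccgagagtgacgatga
ELF4: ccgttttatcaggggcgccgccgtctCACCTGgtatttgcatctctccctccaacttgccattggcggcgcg

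The stronger ETS site CCGGAA (or TTCCGG on the other strand) was found in none of the 11 windows of these 6 genes, against 17.2% of all windows. Of the 3 genes with the E-box, ELF4 was called lower after ZEB1 knockdown and ETS2 was not called. ELF3 was below the filter and could not be called. Over all tested genes, 19% were called higher and 21.2% lower, so these few genes cannot show whether the hexamer goes with a change. A hexamer in a window is a match of letters and not a bound site.

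Per length of annotated exon, the ETS genes fell into clear tiers in the siControl cultures. ETV4 led with 63.6 ± 4.76 RPKM (SD, n = 3), ETV5 followed with 41.6 ± 1.69 RPKM and ELF1 with 22.7 ± 1.78 RPKM, each apart from the next in every culture. ETS1, ELK1, ETS2 and ELF4 formed a middle tier between 11.1 and 12.7 RPKM, in which neighbours overlapped. ETV6 lay below them at 6.35 ± 0.155 RPKM. ETV7 reached 0.189 ± 0.0628 RPKM and ELF3 0.0333 ± 0.00256 RPKM, so that these 2 genes were close to silent. With siZEB1 the order of the means changed only inside the middle tier, where ETS2 had the highest mean with 13.1 ± 0.0640 RPKM. The mean of ETS1, 11.7 ± 0.733 RPKM, was then below that of ELK1, but the cultures of ETS1 and ELK1 overlapped. ETS1, ELK1 and ETS2 were not called.

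**Figure D1:**
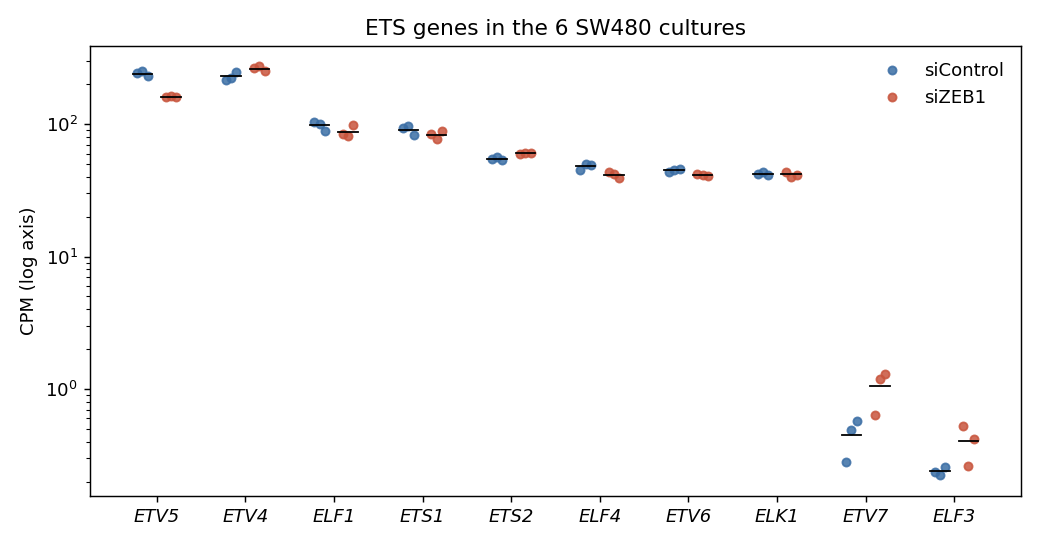
Level of each of the 10 ETS genes in the 6 cultures (points, CPM on a log axis; bars are group means; siControl in blue, siZEB1 in red), ordered by the siControl mean. ETV5 is the abundant gene with the widest gap between the groups, and ETV7 and ELF3 lie near or below 1 CPM.

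Among the PEA3 genes, ETV5, which drives ERK-dependent programmes in development and in tumors, had 243, 250 and 231 CPM in the siControl cultures and 160, 163 and 161 CPM in the siZEB1 cultures. The groups did not overlap, and the siZEB1 cultures lay within a few CPM of each other. The log2 fold change was -0.58 (SE 0.057, adjusted p = 4.74e-07), which is just short of 1.5-fold. ETV5 (ENSG00000244405) lies on chromosome 3 from 186046308 to 186110318 (GENCODE 29, GRCh38, minus strand), and its antisense gene ETV5-AS1 had at most 5 reads in any culture.

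ETV4, the gene after which the PEA3 group is named, had 216, 224 and 249 CPM with siControl and 265, 273 and 251 CPM with siZEB1. The groups did not overlap, but the highest siControl culture and the lowest siZEB1 culture were close. ETV4 was called higher, by 0.20 on the log2 scale (SE 0.063, adjusted p = 0.0187). Leaving out single cultures ended this call in 4 of 6 cases. Its adjusted p-value was 0.087 without siControl replicate 1, 0.0843 without siControl replicate 2, 0.0716 without siZEB1 replicate 1 and 0.0909 without siZEB1 replicate 2. ETV4 (ENSG00000175832) lies on chromosome 17 from 43527844 to 43579620, and 1.89% of its exonic bases are shared with a gene on the other strand.

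The balance between these paralogs was followed as the log2 ratio of ETV4 to ETV5 RPKM in each culture. It was 0.52, 0.52 and 0.79 with siControl and 1.41, 1.43 and 1.33 with siZEB1, so that per length ETV4 outweighed ETV5 in all 6 cultures and by more in the siZEB1 cultures. The difference was 0.78 with no overlap between groups (two-sided exact permutation test, p = 0.1, the smallest that 3 cultures against 3 allow; 0.133 after adjustment over 4 ratios). Which gene is ahead depends on the exon length used. In CPM, ETV5 was above ETV4 in siControl replicates 1 (243 against 216) and 2 (250 against 224). ETV4 and ETV5 together held 40.1 ± 1.57% of the summed ETS RPKM with siControl and 42.1 ± 1.37% with siZEB1 (SD, n = 3 each), and here the groups overlapped. The share of ETV4 alone was 24.2 ± 1.97% and 30.5 ± 1.29%, and that of ETV5 was 15.8 ± 0.549% and 11.6 ± 0.120%. The summed ETS RPKM itself was 263 ± 1.67 with siControl and 240 ± 0.0525 with siZEB1 (SD, n = 3 each). With a smaller sum, a share can rise by more than the RNA does.

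**Figure D2:**
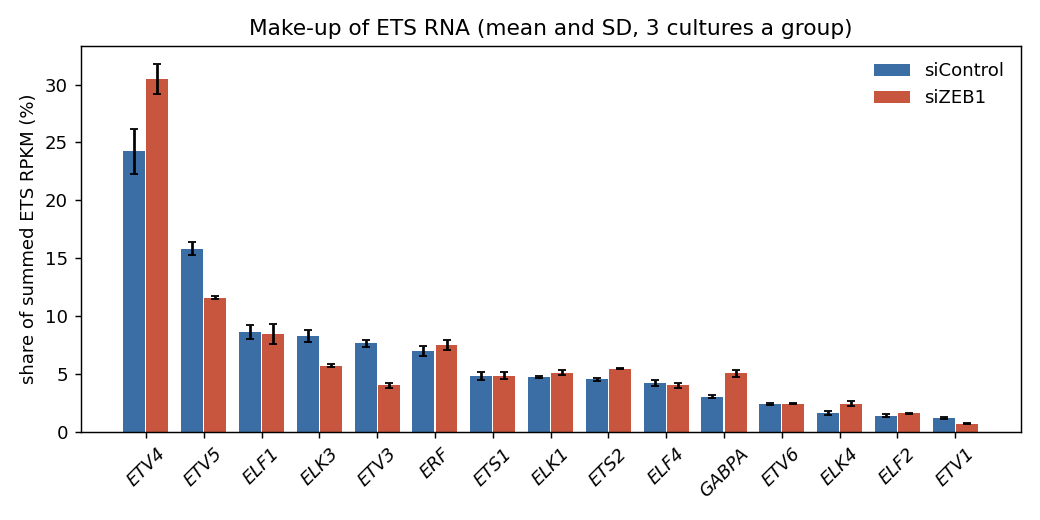
Share of each ETS gene in the summed RPKM of the 25 ETS genes counted, for genes at 1% or more with siControl (bars are means, error bars SD, n = 3 cultures). ETV4 moves from 24.2% to 30.5% and ETV5 from 15.8% to 11.6%, while ETV3 and ELK3, which are outside the 10 genes, also lose share. The summed RPKM was lower with siZEB1, so a share can rise by more than the RNA does.

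ETV6 and ETV7, a pair of repressors with a pointed domain for self-association, were present at very unequal levels. ETV6 had 43.9, 44.9 and 46.1 CPM with siControl and 42.2, 41.1 and 40.3 CPM with siZEB1. The siControl cultures all lay above the siZEB1 cultures, yet the difference was small and ETV6 was not called (log2 fold change -0.12, 95% interval -0.27 to 0.022, adjusted p = 0.167). ETV7, which interferons induce, rested on 6 to 11 reads in each siControl culture and 12 to 25 in each siZEB1 culture. In CPM this was 0.282, 0.491 and 0.571 against 0.636, 1.20 and 1.31, with no overlap but with the lowest siZEB1 culture close to the highest siControl culture. The log2 fold change was 1.22 with a wide 95% interval of 0.38 to 2.06 (adjusted p = 0.0207). The study had named ETV7 from these same cultures, so its call is not independent evidence. The study also reported a rise of ETV7 by qRT-PCR, and the ZEB1/NuRD complex at its promoter by qChIP.

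The ETV7 call was lost without siControl replicate 1, siZEB1 replicate 2 or siZEB1 replicate 3, with adjusted p-values of 0.0889, 0.0747 and 0.0876 and log2 fold changes of 0.98, 1.12 and 1.03. ETV7 could not be tested under a minimum of 10 reads in every culture. ETV7 (ENSG00000010030) lies on chromosome 6 from 36354091 to 36387800 and ETV6 on chromosome 12 from 11649854 to 11895402. The antisense gene ETV7-AS1 had 1 read in 1 culture. The log2 ratio of ETV6 to ETV7 RPKM went from 5.13 ± 0.50 to 3.79 ± 0.60 (SD, n = 3 each; exact permutation p = 0.1, the smallest possible). ETV6 therefore stayed the far more abundant of the pair in both groups.

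ETS1 and ETS2, the founding genes of the family and both substrates of ERK, had small fold changes of opposite sign, and neither was called. ETS1 had 93.4, 96.6 and 82.4 CPM with siControl and 84.2, 77.9 and 88.2 CPM with siZEB1, and the groups overlapped. It was not called (log2 fold change -0.12, 95% interval -0.28 to 0.035, adjusted p = 0.205). ETS2 had 54.2, 56.3 and 53.4 CPM with siControl and 59.9, 60.5 and 60.1 CPM with siZEB1. All siZEB1 cultures lay above all siControl cultures and were nearly identical among themselves. The log2 fold change of ETS2 was 0.14 (95% interval 0.00031 to 0.28), and ETS2 was not called after adjustment over all genes (adjusted p = 0.103). The log2 ratio of ETS1 to ETS2 RPKM was 0.092 ± 0.091 with siControl and -0.17 ± 0.097 with siZEB1 (SD, n = 3 each), with no overlap (exact permutation p = 0.1, the smallest possible). ETS1 was thus slightly ahead of ETS2 in 2 of 3 siControl cultures and behind it in 3 of 3 siZEB1 cultures. ETS1 lies on chromosome 11 from 128458761 to 128587558 and ETS2 on chromosome 21 from 38805307 to 38824955.

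ELF1 and ELF4, activators best known from lymphoid cells, were both slightly lower with siZEB1. ELF1 had 104, 101 and 89.5 CPM with siControl and 83.7, 82.0 and 98.3 CPM with siZEB1. Replicate 3 was the lowest siControl and the highest siZEB1 culture, so the groups overlapped and ELF1 was not called (log2 fold change -0.16, 95% interval -0.33 to 0.0095, adjusted p = 0.125). ELF4 had 44.8, 50.3 and 48.8 CPM with siControl and 43.2, 41.9 and 39.3 CPM with siZEB1, without overlap. It was called lower (log2 fold change -0.21, SE 0.074, adjusted p = 0.0327). This did not hold in 4 of 6 fits on 5 cultures, where ELF4 had an adjusted p-value of 0.146 without siControl replicate 2, 0.0544 without siZEB1 replicate 1, 0.0758 without siZEB1 replicate 2 and 0.116 without siZEB1 replicate 3. DESeq2 placed ELF4 just past the threshold (adjusted p = 0.0504). The log2 ratio of ELF1 to ELF4 RPKM was 1.03 ± 0.17 and 1.08 ± 0.21 (SD, n = 3 each; exact permutation p = 0.7). ELF1 lies on chromosome 13 from 40932028 to 41061440, with 3.85% of its exonic bases shared with the other strand, and ELF4 (ENSG00000102034) on chromosome X from 130064874 to 130110716.

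Without siControl replicate 3, the culture farthest from its group, ELF1 and ETS1 were also called lower. Their adjusted p-values were then 0.0159 and 0.0307, and 4 of the 10 ETS genes were lower in place of 2. Over all genes, that fit called 3311 of 15366 lower, against 3186 of 14996 with all 6 cultures. ELF1 was also called without siZEB1 replicate 3 (adjusted p = 0.0194).

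ELK1, a ternary complex factor that binds beside SRF and carries ERK signals to immediate-early genes, had 41.9, 43.4 and 41.6 CPM with siControl and 43.8, 40.3 and 41.2 CPM with siZEB1. These ranges overlapped almost entirely. The log2 fold change was -0.019, with a 95% interval of -0.17 to 0.13 (adjusted p = 0.858). ELK1 lies on chromosome X from 47635521 to 47650604.

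ELF3, the epithelial member, had 5 reads in each siControl culture and 10, 5 and 8 reads in the siZEB1 cultures. This was 0.235, 0.223 and 0.259 CPM against 0.530, 0.260 and 0.418 CPM, and ELF3 did not pass the filter on low counts. Its antisense gene ELF3-AS1 had more reads than ELF3 itself, at 15, 26 and 11 with siControl and 18, 9 and 17 with siZEB1, and was not called (log2 fold change -0.095, SE 0.38, adjusted p = 0.867). A gene on the other strand shares 9.23% of the exonic bases of ELF3. The strand setting of the counting is not given in the sources used here, so reads of ELF3 and of that gene cannot be told apart there. A gene on the same strand also shares 9.23% of these bases, which no strand setting would resolve. ELF3 lies on chromosome 1 from 202007945 to 202017188. ELF3 stayed near silent in both groups, while the epithelial adhesion genes CDH1 and EPCAM rose in the same cultures.

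**Figure D3:**
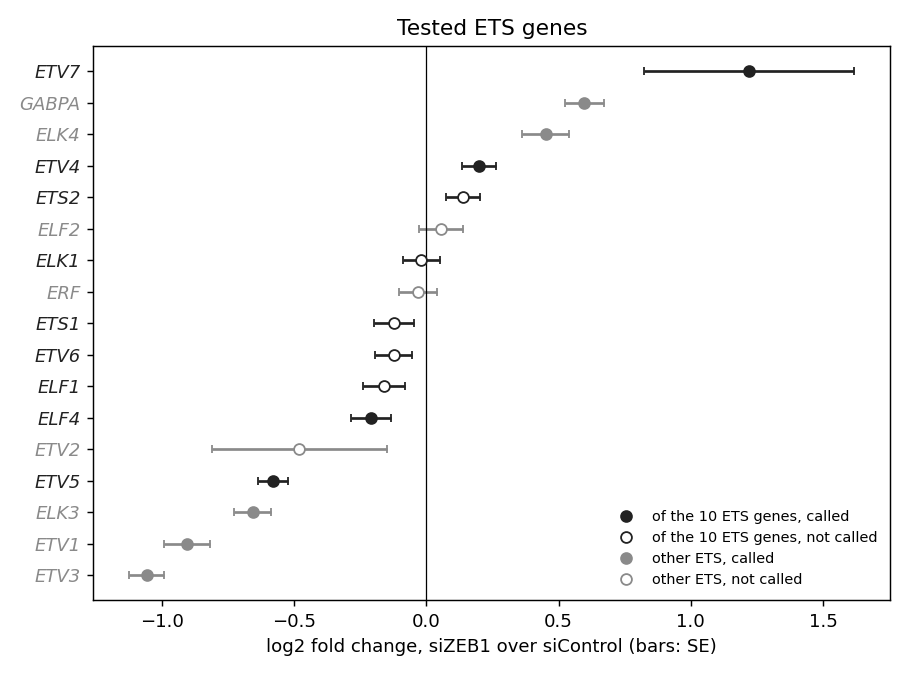
Log2 fold change of siZEB1 over siControl for the 17 ETS genes tested (points, bars are SE; black for the 10 genes described, grey for the others; filled when the adjusted p-value was under 0.05). ETV5 sits at -0.58 and ETV7 at 1.22 with a wide error, while ETV3, ETV1 and ELK3 lie lower than any of the 10 genes.

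Groups did not overlap for 6 of the 9 tested genes of the 10, against 49.5% of all tested genes. The median log2 fold change of the 9 was -0.12, and that of all tested genes was -0.0055. A stricter rule, a fold change above 1.5 with an unadjusted p-value under 0.001, called 0 of the 9 in either direction with edgeR and 0 with DESeq2, whereas it called 4.52% of all genes higher and 6.7% lower. In edgeR's test the unadjusted p-value was under 0.05 for 5 of the 9, namely ETV4, ETV5, ETV7, ETS2 and ELF4. Of all 14996 tested genes, 6035 passed even the adjusted threshold, so this count is not read as a response of the family. The summed RPKM of the 10 genes was 183 ± 2.86 with siControl and 174 ± 0.959 with siZEB1 (SD, n = 3 each).

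**Figure D4:**
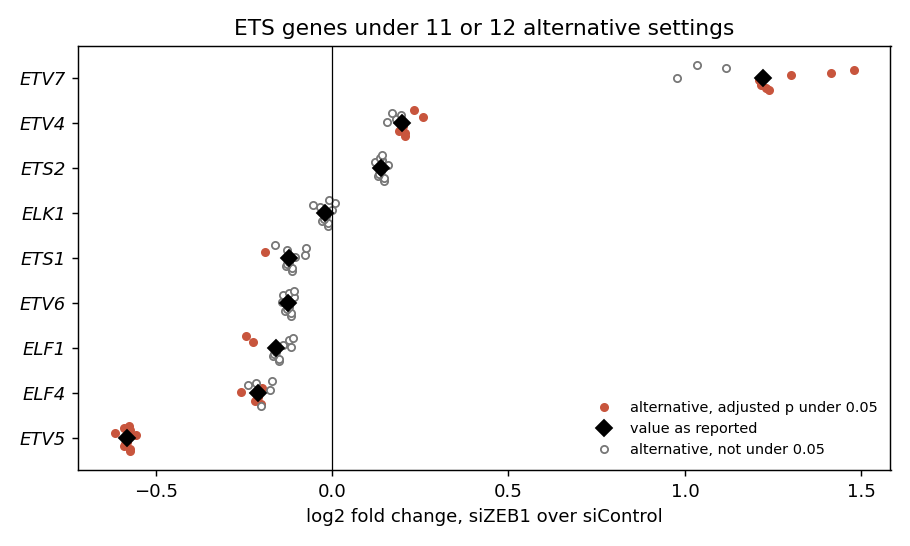
Log2 fold change of the 9 tested ETS genes as reported (black diamonds) and under 11 or 12 alternative settings (red where the adjusted p-value was under 0.05, open where not). ETV5 stays between -0.61 and -0.56 and is red throughout, while ETV4, ETV7 and ELF4 hold both kinds of point.

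The remaining ETS genes of the human genome give the setting for these values. Of the other 18, 15 were counted, 8 were tested, 2 were called higher and 3 lower, against 19% and 21.2% of all tested genes. ETV3, a repressor related to ERF, fell from 135 ± 5.77 to 64.7 ± 3.05 CPM (log2 fold change -1.06, SE 0.066, adjusted p = 2.21e-09). ETV1, the PEA3 gene alongside ETV4 and ETV5, fell from 31.1 ± 2.22 to 16.6 ± 0.870 CPM (log2 fold change -0.91, SE 0.087, adjusted p = 3.55e-07). In the PEA3 group, ETV5 and ETV1 were therefore called lower in all 12 alternative fits. ETV4 was called higher, but this call was lost in 5 of 12. ELK3, a relative of ELK1, fell by 0.66 on the log2 scale, and ELK4, another ternary complex factor, rose by 0.45, while ELK1 between them showed no call. GABPA, which pairs with GABPB1 at promoters of mitochondrial genes, rose by 0.60. ERF (-0.030), ELF2 (0.055) and ETV2 (-0.48, at about 1 CPM) were not called. ERG, FLI1, ETV3L, EHF, SPDEF, SPI1 and SPIB stayed below the filter with at most 24 reads in a culture, and FEV, ELF5 and SPIC were not analysed here.

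The kinases that feed these factors and their known outputs were described from lists compiled by hand, whose counts are to be read against the 19% of all tested genes called higher and the 21.2% called lower. Of 10 genes of the RAS-ERK cascade, 1 was called higher and 3 lower, which is near the background, with a median log2 fold change of -0.12. The kinase genes MAP2K2 (-0.52) and MAP2K1 (-0.42) were among those that fell, and NRAS (0.38) rose. Of 13 partners and turnover factors, 1 was called higher and 3 lower, also near the background, with a median of 0.015. The coactivator EP300 fell by 0.59, ATXN1, a partner of CIC, fell by 0.37, and SPOP, a ubiquitin ligase adaptor for ERG, rose by 0.44. GABPB1 fell by 0.23 (adjusted p = 0.0395), a call that was lost without siControl replicate 1, siZEB1 replicate 1 or siZEB1 replicate 2, with adjusted p-values up to 0.181, or with DESeq2 (0.0666). CIC itself was not called (0.096, adjusted p = 0.307).

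Of 12 ERK output genes, which ETV5 and ETV4 accompany in many cell types, 7 were called lower, against 21.2% of all genes, and 3 higher, against 19%. Their median was -0.34. SPRY4 (-1.48), SPRY2 (-0.69) and EPHA4 (-0.59) fell like ETV5, and PHLDA1 (1.14) rose. Of 12 immediate-early genes under SRF and ELK1, 7 were called higher and 2 lower, with a median of 0.22. FOSB (0.74), IER2 (0.50) and EGR3 (0.32) rose and NR4A1 (-0.34) fell, while ELK1 itself was not called. Of 10 invasion genes with ETS sites, 5 were tested and 2 called. PLAU rose by 0.24 (adjusted p = 0.0351), a call that DESeq2 (adjusted p = 0.0588) and 5 of the 6 fits without 1 culture did not keep, and the protease inhibitor TIMP1 fell by 0.45.

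Of 16 epithelial genes that surround ELF3 in epithelial cells, 12 were tested, 6 were called higher and 0 lower by edgeR, with a median of 0.19. In the lower direction, 0 had an unadjusted p-value under 0.05, and DESeq2 called 0. CDH1 (4.01), EPCAM (3.05), OVOL2 (2.77) and KRT19 (1.62) rose. Of 15 interferon-induced genes, 11 were tested, 2 were called higher and 7 lower, with a median of -0.58. IFIT1 (-1.04, at about 1 CPM), IFIT3 (-0.88), ISG15 (-0.80) and IRF1 (-0.77) fell. ETV7, which the same signals induce, rose like the 2 genes of this list called higher. Its call rested on 6 to 25 reads in each culture and was lost in 3 of 11 alternative fits. The IFIT1 call did not hold without siControl replicate 2 or 3 or siZEB1 replicate 1 or 2 (adjusted p up to 0.124, without siControl replicate 3) or with DESeq2 (0.0682), and the IFIT3 call without siZEB1 replicate 2 (adjusted p = 0.0561).

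**Figure D5:**
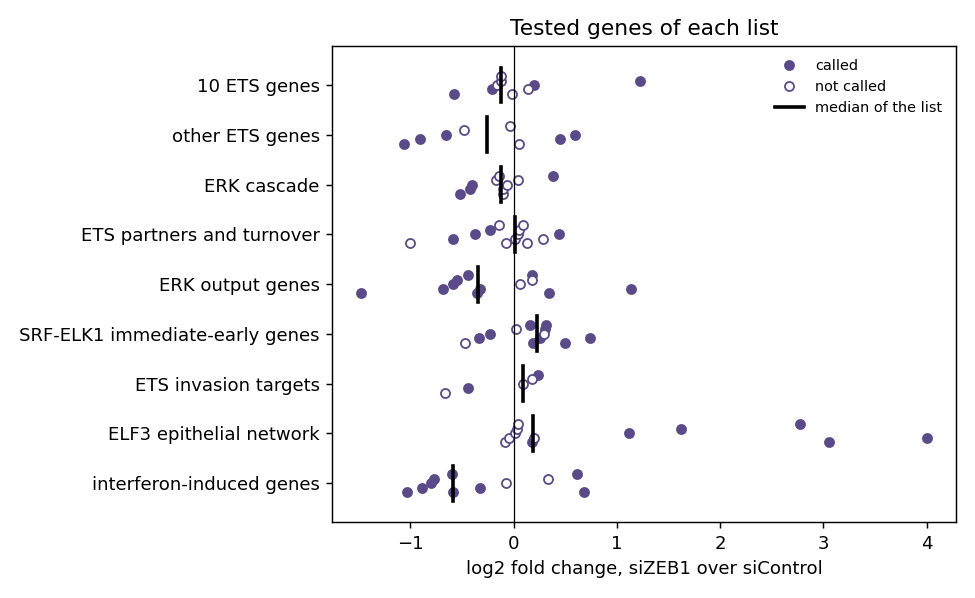
Log2 fold change of siZEB1 over siControl for each tested gene of 9 lists (filled when called, open when not; vertical bars are list medians). The 10 ETS genes center near -0.12, the ERK output genes near -0.34 and the interferon-induced genes near -0.58, while the epithelial genes around ELF3 reach 4.01.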

How the data were processed

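RNA-seq of 6 SW480 cultures was analysed, 3 per group, which the study calls biological replicates. The deposited values are raw counts of reads per Ensembl gene, made by the authors without normalization. The submitters' processing notes name Trimmomatic, HISAT2, SAMtools, featureCounts and hg38; versions, annotation and strand setting are not given in the sources used here.

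From these counts, genes were kept by filterByExpr (minimum count 10), scaled by TMM and tested with edgeR 4.0.16 in R 4.3.3 (quasi-likelihood, two-sided, Benjamini-Hochberg over 14996 genes, no covariates). RPKM divides CPM by the union exon length in GENCODE 29, which covers all isoforms and so understates genes with long alternative exons. Of 32029 genes, 31059 were in GENCODE 29 (GRCh38). DESeq2 1.42.0 was an alternative. The smallest exact p-value for 3 against 3 is 0.1.

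The ETS genes and lists were chosen with earlier results of these data known. Named genes were ZEB1, every ETS gene, antisense genes of the 10, the most changed called genes of each list (at most 4), and the 3 nearest profiles of ETV4 and ETV5. List genes named beyond these, that is CIC, CDH17, CEACAM5, KRT8, KRT18 and CD68, were chosen after their values were seen. GRHL2, MMP7, CDX1, PTPRC, CDH5, KDR and DCN were not analysed here, and some genes of the lists are not reported here by name.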

Additional observations from a re-analysis of the deposited data

How the results depend on the processing

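Alternatives were DESeq2, scaling by total reads or by median-of-ratios factors, no filter on low counts, a minimum of 10 counts per culture, the replicate block, leaving out each culture, and a stricter call. They were extended to the lists and other named genes after the data were seen. Of the 10 ETS genes, those called higher numbered 1 under the minimum of 10 counts, 1 with the replicate block, 0 under a fold above 1.5 with p under 0.001, and 0 to 2 without 1 culture. Those called lower numbered 1 with DESeq2, 1 with the replicate block, 0 under the stricter call and 1 to 4 without 1 culture. That call left 678 genes higher and 1004 lower of all tested, against 2849 and 3186. It left 0 of the ERK cascade, 1 of the partners, 4 of the ERK output, 1 of the immediate-early, 0 of the invasion and 3 of the interferon genes. Of the invasion genes, 1 was called without a filter, 1 with the replicate block and 1 to 2 without 1 culture. Signs turned for uncalled values near 0: the ELF1 to ELF4 ratio (-0.071 to 0.14 without 1 culture), ELK1 (-0.053 to 0.0069 without 1 culture), ERF (-0.068 to 0.016) and ELF2 (-0.020 to 0.10). The cause was not tested. Same-numbered cultures deviated in opposite directions (r = -0.33, -0.33 and -0.65 over genes), which gives no sign that the numbers pair them. Deviations from a mean of 3 cultures are tied to one another, so these values cannot settle the pairing. With the replicate block, ETV4 (adjusted p = 0.0753), ELF4 (0.107), GABPB1 (0.0914), PLAU (0.0982) and PDGFRB (0.0567) lost their calls, and 2289 genes were higher and 2679 lower. ETV7 and ELF3 are limited by depth.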

Other observations

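Profiles most like those of ETV4 and ETV5 were sought among 9029 genes with a mean of at least 10 CPM, by the root mean square difference of log2 CPM over the 6 cultures after centring on siControl. For ETV4 the nearest were CNOT3 (0.0222), ACADVL (0.0229) and PPP1R37 (0.0248), a deadenylase subunit, a mitochondrial acyl-CoA dehydrogenase and a phosphatase regulator. For ETV5 they were ARMC10 (0.0226), PYGL (0.0265) and NEK6 (0.0311), among them liver glycogen phosphorylase and a mitotic kinase. With 2 groups of 3 cultures such likeness is mostly a like fold change, and nothing about shared control follows from it.

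The 7-mer GAACACA in 3′UTRs, a sequence singled out earlier from these same data, was looked up in 1 GENCODE 29 transcript per gene. It occurred in 10.7% of 12321 tested genes, whose median log2 fold change was -0.23 and of which 45.3% were called lower, against 0.0065 and 21.4% for genes without it. Genes with it also had longer 3′UTRs, with a median of 2850 against 856 bases. None of the 3′UTRs of the 10 ETS genes holds it, ETV5 included, at 2331 bases. Outside the 10, it is in ETV3 and ELK3, which fell, and in ELK4, which rose. Its part in any of these changes was not tested.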
